A study of Canis lupus familiaris with 6 samples.

Results

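Collagen genes were compared between the left ventricles of affected and control dogs, class by class. A gene was taken as a member when its symbol had the form COL, number, A, number and stood alone for a probe set in the annotation of the array. This gave 36 collagen genes with 97 probe sets, out of 15115 genes and 42924 probe sets in all. The fibrillar class held 10 genes and 29 probe sets, type VI 3 genes and 7 probe sets, the fibril-associated class 8 genes and 25 probe sets, and the basement membrane class (type IV) 6 genes and 15 probe sets. The remaining 9 genes, with 21 probe sets, were COL15A1, COL10A1, COL8A2, COL7A1, COL25A1, COL23A1, COL13A1, COL17A1 and COL26A1. A probe set that named COL25A1 together with another gene was left out. RefSeq lists 43 collagen genes for the dog, of which 7, among them COL6A2, COL11A1 and COL18A1, were not analysed here.

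Collagens are triple-helical proteins of the extracellular matrix. Fibrillar collagens, chiefly types I and III in the heart, form the cable-like fibres around and between cardiomyocytes, with type V built into the same fibrils. Type VI forms beaded filaments beside the cells, fibril-associated collagens sit on the surface of fibrils, and type IV is the network of the basement membrane around each cardiomyocyte and vessel. In the myocardium the fibrillar genes are expressed mainly by fibroblasts, and replacement of muscle by collagen fibres is a known feature of failing hearts.

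The study measured total RNA of the left ventricle from 6 dogs, with 1 Affymetrix canine array per dog. Control 1 was a male Labrador retriever aged 12 years, control 2 a female St. Bernard aged 10 years and control 3 a male Greater Swiss Mountain dog aged 4 years. All 3 dogs with cardiomyopathy (labelled DCM) were Great Danes. Affected 1 was a female aged 9 years, and affected 2 and affected 3 were males aged 7 years. No treatment or genotype is given for either group, and every affected dog is of 1 breed that no control shares, so disease and breed cannot be told apart.

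Values are on the log2 scale and each probe set was centred on its median over the 6 arrays before deposit. A value is therefore a difference between arrays and not a level, genes cannot be ranked by abundance, and in a single probe set the 2 middle arrays lie at equal distance on either side of 0. For the same reason the cardiomyocyte markers (11 of 12 with a probe set) could not show the tissue's identity by their level. Arrays differed in ways that bear on the collagens. On control 3, 1683 probe sets lay below -1, while the remaining arrays had 161 to 510 of them. Spiked control transcripts had medians of -0.01, -0.05 and -0.04 on the controls and 0.41, -0.13 and 2.12 on the affected dogs. The 17 probe sets for unexpressed tags, which have no target in dog RNA, averaged 0.06, 0.01 and 0.13 on the controls and -0.03, -0.03 and -0.01 on affected 1 to affected 3, without overlap. Of all probe sets, 41.8% followed these tags over the arrays (Pearson's r over 0.9). Lower values of such probe sets in affected hearts share the pattern of the tags, but r does not compare their size.

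The genes of the major heart collagens lay higher in affected ventricles by their means, without passing the adjusted test. The groups overlapped in COL5A2 and COL6A1 among them, and also in COL4A1 and COL4A2, the main type IV genes, whose differences were smaller. COL1A1, COL1A2, COL3A1, COL5A2, COL6A1 and COL12A1 were each at least 2-fold higher by their means, which made 6 of 36 collagen genes (16.7%) against 1.68% of all genes. No collagen gene was 2-fold lower, against 0.576% of all genes. With control 3 left out, the 6 genes differed by 1.28 (COL1A1), 0.96 (COL3A1) and 0.73 to 0.95 (the rest). Only COL1A1 among them then stayed at least 2-fold higher. No collagen gene passed the adjusted threshold of 0.05 (limma, smallest adjusted p = 0.322), where 0 of the 15115 genes passed. At an unadjusted p under 0.05 in limma, 3 collagen genes were higher (8.33%, against 4.88% of all genes) and 1 was lower (2.78%, against 5.64%). The groups did not overlap in 4 collagen genes that were higher (11.1%, against 5.80% of all genes) and in 16 that were lower (44.4%, against 41.7%), so the share of lower ones was near the background.

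Probe set by probe set the picture was alike. At least 2-fold higher were 17 of 97 collagen probe sets (17.5%, against 2.53% of all probe sets), and 0 were 2-fold lower (against 0.764%). Higher at an unadjusted p under 0.05 in limma were 7 (7.22%, against 4.53%), and 1 was lower (1.03%, against 6.32%). None passed the adjusted threshold in limma, against 0.00233% of all probe sets. The groups did not overlap in 10 that were higher (10.3%, against 5.37%) and 49 that were lower (50.5%, against 46.9%).

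**Figure D1:**
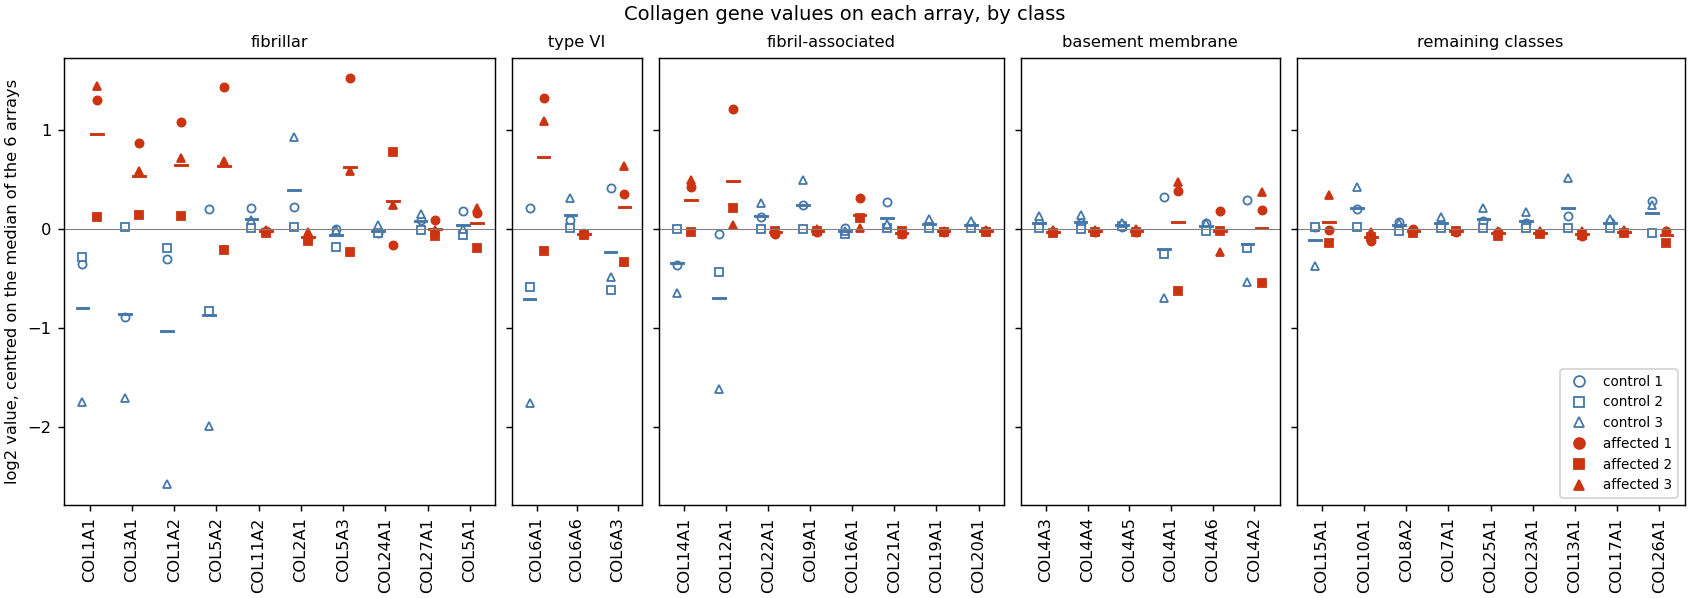
Value of each collagen gene (mean of its probe sets, log2, centred on the median of the 6 arrays) on each array, in panels by class. Open blue symbols are the 3 control dogs, filled red symbols the 3 affected dogs and bars the group means. COL1A1, COL3A1, COL1A2 and COL12A1 are the genes whose affected values all lie above all control values, and control 3 holds the lowest value of each of them.

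In the fibrillar class, COL1A1, the alpha 1 chain of type I collagen, had values of -0.35, -0.28 and -1.74 on control 1 to control 3 and 1.31, 0.13 and 1.45 on affected 1 to affected 3. The affected dogs were all above the controls, with affected 2 nearest to them and control 3 far below the other controls. The difference was 1.75 (SE 0.55, 95% confidence interval 0.35 to 3.16, limma adjusted p = 0.322), or 3.37-fold. All 3 of its probe sets were higher without overlap, by 1.20 to 2.23.

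COL1A2, the alpha 2 chain of the same collagen, had values of -0.30, -0.19 and -2.58 on the controls and 1.09, 0.13 and 0.73 on the affected dogs. The groups did not overlap, and the difference was 1.67 (SE 0.72, 95% confidence interval -0.15 to 3.49, limma adjusted p = 0.322). Of its 4 probe sets, 3 differed by 1.85 to 2.65 and the other by 0.03. Control 3 carried much of this value, which was 0.90 without that dog.

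COL3A1, the single chain of type III collagen, had values of -0.88, 0.03 and -1.71 on the controls and 0.87, 0.14 and 0.59 on the affected dogs. The groups were apart by the small gap between control 2 and affected 2. The difference was 1.39 (SE 0.48, 95% confidence interval 0.19 to 2.59, limma adjusted p = 0.322), or 2.62-fold. Of its 5 probe sets, 3 differed by 2.06 to 2.39, a further one by 0.51, and the last, at -0.12, followed the unexpressed tags. Only the probe set at 2.06 was higher without overlap. In the other large ones affected 2 lay below control 2, at -0.15 and 0.15 and at -0.02 and 0.02. The probe set at 0.51 overlapped too and was highest on affected 2 (0.85). The relation of type I to type III was not set apart between the groups. COL1A1 minus COL3A1 was 0.53, -0.31 and -0.03 on the controls and 0.44, -0.02 and 0.86 on the affected dogs.

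COL5A2, a chain of type V collagen, which is built into type I fibrils, had values of 0.21, -0.82 and -1.99 on the controls and 1.44, -0.21 and 0.69 on the affected dogs. Affected 2 lay below control 1, and the difference was 1.51 (SE 0.69, limma adjusted p = 0.322). It was 0.95 without control 3. COL5A3 differed by 0.69 and COL5A1 by 0.02, each with overlap. COL5A3 differed by 0.24 without affected 1 and by 1.12 without affected 2, and COL5A1 ranged from -0.05 to 0.15 with 1 dog left out. The COL5A1 value is a mean of 4 unlike probe sets, from -0.30 to 0.74, of which 2 followed the unexpressed tags.

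The other fibrillar genes differed less. COL2A1, the main collagen of cartilage, differed by -0.47, with both probe sets following the tags, and by -0.20 without control 3. COL11A2, a minor cartilage fibril chain, differed by -0.13 and COL27A1 by -0.07, with 4 of 5 COL27A1 probe sets following the tags. COL24A1 differed by 0.30 and was highest on affected 2 (0.78). It differed by 0.06 without that dog and by 0.53 without affected 1. COL11A2 differed by -0.07 without control 1. COL27A1 ranged from -0.12 (without affected 1 or control 2) to -0.04 (without control 3 or affected 2). The median difference of the class was 0.50, with 7 genes above 0 and 3 below, beside a median of -0.07 over all genes.

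**Figure D2:**
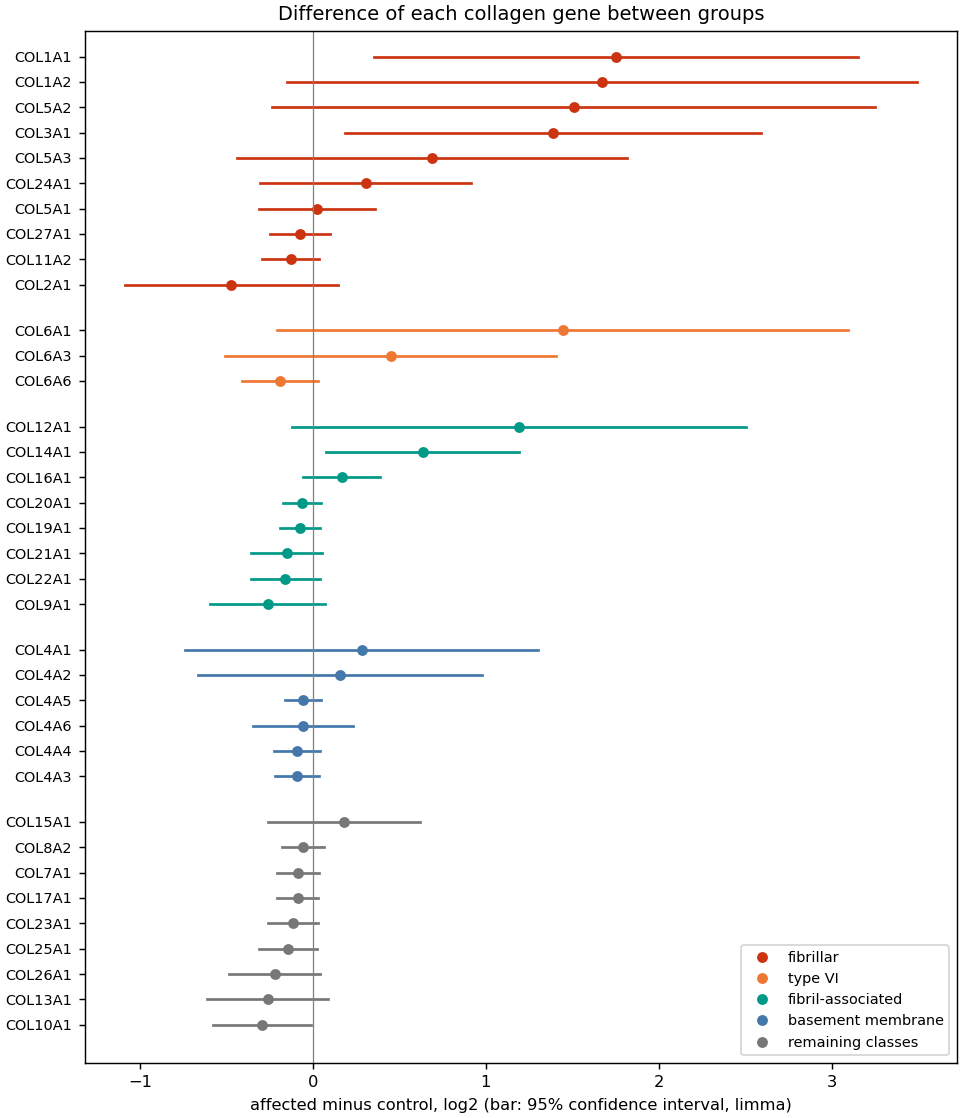
Difference of each collagen gene, affected minus control on the log2 scale, with the 95% confidence interval from limma, ordered by size within its class. The interval lies above 0 for COL1A1, COL3A1 and COL14A1 and below 0 for COL10A1, before any adjustment for the number of genes.

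In type VI, COL6A1 had values of 0.22, -0.58 and -1.76 on the controls and 1.33, -0.22 and 1.10 on the affected dogs. Affected 1 and affected 3 lay above every control and affected 2 between control 1 and control 2. The difference was 1.44 (SE 0.65, 95% confidence interval -0.21 to 3.10, limma adjusted p = 0.322), with both probe sets alike at 1.40 and 1.49, and it was 0.92 without control 3. COL6A3, the long alpha 3 chain, had values of 0.41, -0.61 and -0.48 on the controls and 0.36, -0.33 and 0.64 on the affected dogs. The groups overlapped, and the difference was 0.45 (SE 0.38, limma adjusted p = 0.425), from -0.19 to 1.05 over its 3 probe sets. It was 0.24 without affected 3, 0.26 without control 2, 0.72 without affected 2 and 0.77 without control 1. COL6A6 differed by -0.19, and by -0.10 without control 3, with both probe sets following the unexpressed tags. The class median of 0.45 thus rests on 3 unlike genes, 1 of which followed the tags.

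Among the fibril-associated collagens, COL14A1, which binds the surface of type I fibrils, had values of -0.36, -0.00 and -0.64 on the controls and 0.43, -0.03 and 0.50 on the affected dogs. Control 2 and affected 2 were nearly equal. The difference was 0.63 (SE 0.22, 95% confidence interval 0.08 to 1.19, limma adjusted p = 0.322). Its 8 probe sets ranged from -0.09 to 2.67, so the gene mean joins probe sets that differed widely with others that did not.

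COL12A1, a fibril-associated collagen of tissues under tension, had values of -0.05, -0.43 and -1.61 on the controls and 1.22, 0.22 and 0.05 on the affected dogs. The groups did not overlap, and the difference was 1.19 (SE 0.52, limma adjusted p = 0.322). It was 0.73 without control 3. Single dogs set its probe sets apart. One probe set stood at 3.65 on affected 1 and between -0.08 and 0.01 on the other 5 arrays, and another at -4.50 on control 3.

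COL16A1 differed by 0.17, from 1 of its 3 probe sets at 0.63 without overlap, while the other two followed the tags. COL22A1 differed by -0.16, COL9A1 by -0.26, COL21A1 by -0.15, COL19A1 by -0.08 and COL20A1 by -0.06. Without control 3 COL22A1 differed by -0.09 and COL9A1 by -0.14. COL21A1 differed by -0.07 without control 1, and COL16A1 by 0.08 without affected 1. In the whole class 12 of 25 probe sets followed the unexpressed tags. The class median was -0.07, the same to 2 decimals as that of all genes, although its highest member differed by 1.19. It turned to 0.0028 when each array was centred on its own median and to 0.0098 after quantile normalization.

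The basement membrane class was headed by COL4A1 and COL4A2, the chains of the type IV network found in most basement membranes. COL4A1 had values of 0.33, -0.25 and -0.69 on the controls and 0.39, -0.63 and 0.48 on the affected dogs. COL4A2 had values of 0.29, -0.19 and -0.54 on the controls and 0.20, -0.54 and 0.37 on the affected dogs. Both genes were high on control 1, affected 1 and affected 3 and low on the remaining arrays, so the dogs differed within each group more than the groups did. COL4A1 differed by 0.28 (SE 0.40, 95% confidence interval -0.74 to 1.30, limma adjusted p = 0.636) and COL4A2 by 0.15 (SE 0.32, 95% confidence interval -0.67 to 0.98, limma adjusted p = 0.750). The wide intervals do not show that the pair was equal in both groups. The COL4A1 difference was 0.04 without control 3, 0.08 without affected 3, 0.13 without affected 1, 0.55 without control 1 and 0.63 without affected 2. That of COL4A2 turned to -0.04 without control 3, -0.03 without affected 3 and -0.06 after quantile normalization, and was 0.06 without affected 1, 0.37 without control 1 and 0.43 without affected 2. All 5 probe sets of the pair lay between 0.11 and 0.45.

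COL4A3, COL4A4, COL4A5 and COL4A6, the chains known from kidney and other specialised basement membranes, differed by -0.09, -0.09, -0.06 and -0.06. The first 3 were lower without overlap, but COL4A5 turned to 0.02 with each array centred on its median and to 0.01 after quantile normalization, where COL4A4 was 0.0015. Of their 10 probe sets, 8 followed the unexpressed tags, among them all of COL4A3 and COL4A4. COL4A3 had values of 0.06, 0.01 and 0.13 on the controls and -0.03, -0.04 and -0.01 on the affected dogs, which are close to those of the tags given above. Without control 3 COL4A3 differed by -0.06 and COL4A4 by -0.05. COL4A6 turned to 0.05 without affected 3 and was -0.16 without affected 1. The class median was -0.06, with 0 of 6 genes at an unadjusted p under 0.05 in limma, and turned to 0.02 with each array centred on its median.

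The remaining 9 genes had a median of -0.12, and 16 of their 21 probe sets followed the tags. COL10A1, a short-chain collagen of growth plate cartilage, was the 1 collagen gene lower at an unadjusted p under 0.05, by -0.29 (SE 0.11, limma adjusted p = 0.322). Its values were 0.20, 0.03 and 0.43 on the controls and -0.12, -0.08 and -0.03 on the affected dogs, the order of the tags on the controls, and both probe sets followed the tags. It differed by -0.19 without control 3. COL26A1 differed by -0.22, COL25A1 by -0.14 and COL23A1 by -0.12, the last 2 being transmembrane collagens. Without control 3 COL25A1 differed by -0.09, COL23A1 by -0.07, COL7A1 by -0.05 and COL13A1, at -0.26 over all dogs, by -0.11. COL15A1, a proteoglycan collagen of vessel and muscle basement membranes, was the only one of the 9 above 0, at 0.18, with 1 of its 4 probe sets at 0.71. It differed by 0.05 without control 3, 0.04 without affected 3 and 0.28 without affected 2.

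Over all classes the collagen probe sets divided into those that ran with the unexpressed tags and those that did not. Of the 97, 48 followed the tags (49.5%, against 41.8% of all probe sets), and in 13 genes every probe set did. These were COL2A1, COL4A3, COL4A4, COL6A6, COL7A1, COL9A1, COL10A1, COL13A1, COL17A1, COL19A1, COL20A1, COL23A1 and COL25A1. All 13 lay below 0, by -0.47 to -0.06, and 12 of them were without overlap between the groups. Their sizes differed on control 3, where the tags averaged 0.13 and COL4A3 stood at 0.13. A COL2A1 probe set stood there at 1.71 and a COL13A1 probe set at 1.32. The share that followed the tags was 34.5% in the fibrillar class, 28.6% in type VI, 48.0% in the fibril-associated class, 53.3% in type IV and 76.2% in the remaining classes. All 48 probe sets lay below 0, so a median taken without them leaves out lower values by construction. The median of all genes turned from -0.07 to 0.05 without such probe sets.

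**Figure D3:**
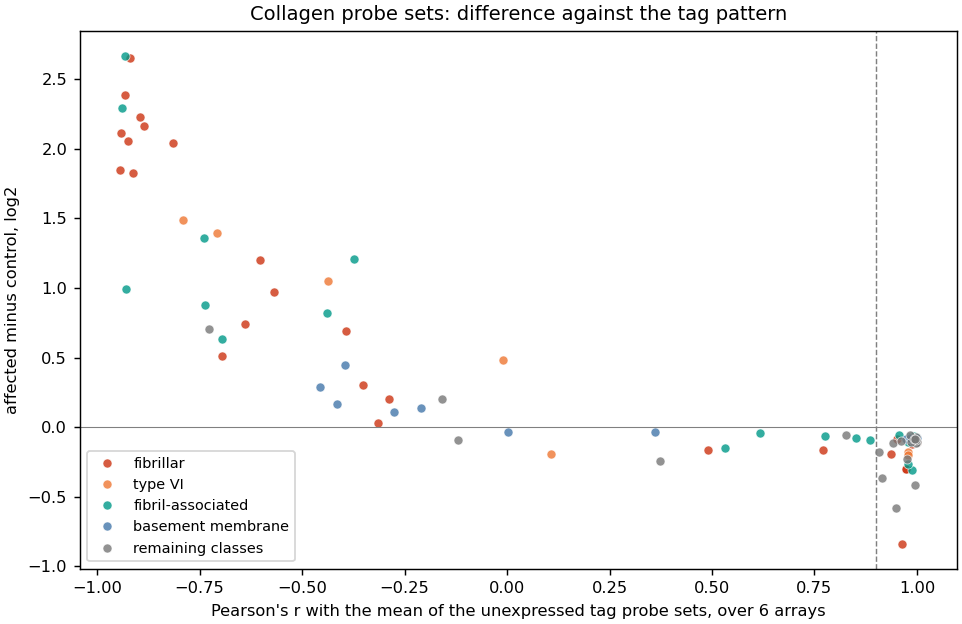
Each of the 97 collagen probe sets by its Pearson's r with the mean of the unexpressed tag probe sets over the 6 arrays and by its difference, affected minus control on the log2 scale. The 48 points right of the dashed line (r = 0.9) lie below 0, and the points with large differences, mostly fibrillar, lie at negative r, where control 3 has the highest tag value and low collagen values.

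The collagens that stood high in affected hearts also varied between dogs of a group. Control 3, the youngest dog, held the lowest value and affected 1 or affected 3 the highest in all 6 genes that were at least 2-fold higher, a pattern found in 47.6% of all genes at least 2-fold higher. Among collagen probe sets that did not follow the tags, it held in 21 of 49 (42.9%), against 18.3% of all such probe sets. For affected 2 against the 3 controls alone, where 1 dog is assumed to vary like the others, the differences were 0.92 for COL1A1, 1.16 for COL1A2, 1.00 for COL3A1, 0.92 for COL12A1, 0.66 for COL5A2, 0.49 for COL6A1 and 0.30 for COL14A1. On that comparison COL4A1 and COL4A2 lay below the control mean, at -0.42 and -0.40. The control means include control 3, the lowest control in all of these genes. Affected 2 and the highest control stood at 0.13 and -0.28 in COL1A1, 0.13 and -0.19 in COL1A2 and 0.14 and 0.03 in COL3A1. In COL5A2 (-0.21 and 0.21) and COL6A1 (-0.22 and 0.22) affected 2 lay below the highest control. The count of collagen genes higher at an unadjusted p under 0.05 in limma was 1 (2.78%) without control 3, affected 1 or affected 3, where 2.63%, 3.24% and 3.31% of all genes were called. The gene was COL1A2, COL24A1 and COL16A1 in turn. Without affected 2 the count was 6 (16.7%, against 6.97% of all genes). Without control 2, 13 collagen genes were lower (36.1%), where 24.0% of all genes were.

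A control for RNA quality was also lowest on control 3 and highest on affected 1 and affected 3. Beta-actin control probe sets at the 3' end minus those at the 5' end, a value that is higher in more degraded RNA, gave 0.19, 0.11 and -0.27 on the controls and 0.30, -0.18 and 0.39 on the affected dogs. The same measure for GAPDH was -0.04, 0.15 and -0.14 on the controls and 0.02, 0.14 and -0.03 on the affected dogs. The part of RNA quality, of the spiked transcripts and of dog age in the collagen differences was not tested apart from the fits given here. With age as a covariate, 7 collagen genes were higher and 8 lower at an unadjusted p under 0.05 in limma, against 7.43% and 19.4% of all genes.

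The type IV pair gave a reference for the other classes on the same array. Relative to the mean of COL4A1 and COL4A2, the affected dogs stood closer together in both type I genes. The mean of COL1A1, COL1A2 and COL3A1 minus that of the type IV pair was -0.82, 0.07 and -1.40 on the controls (mean -0.72 ± 0.74, SD, n = 3) and 0.80, 0.72 and 0.50 on the affected dogs (mean 0.67 ± 0.16, SD, n = 3). The affected dogs were all above the controls on this measure, including affected 2, whose fibrillar values alone lay near those of control 2. COL1A1, COL1A2 and COL3A1 were each already without overlap before the pair was subtracted. Affected 2 had a type IV mean of -0.58, while affected 1 and affected 3 had 0.29 and 0.43. This reference was chosen after the values were seen and carries no test.

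Taken gene by gene on this scale, COL1A1, COL1A2, COL5A2 and COL6A1 were higher in affected hearts without overlap, 4 of the other 34 collagen genes, against 1.07% of all genes. COL1A1 relative to the pair was -0.66, -0.06 and -1.13 on the controls and 1.02, 0.71 and 1.02 on the affected dogs. COL6A1 was -0.09, -0.37 and -1.15 on the controls and 0.37 to 1.04 on the affected dogs. COL3A1 overlapped here by control 2, at 0.24, and affected 3, at 0.17. COL12A1, without overlap before the pair was subtracted, overlapped here by control 2, at -0.21, and affected 3, at -0.38. COL6A3 overlapped too, at -0.39 to 0.13 on the controls and 0.06 to 0.25 on the affected dogs. None of the collagen genes was lower without overlap on this scale, against 0.457% of all genes. Before the pair was subtracted, 5.8% of all genes were higher and 41.7% lower without overlap. A gene flat over the arrays takes on the pair's own overlapping pattern here. The shares of all genes are thus low by construction and do not weigh the collagen counts.

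**Figure D4:**
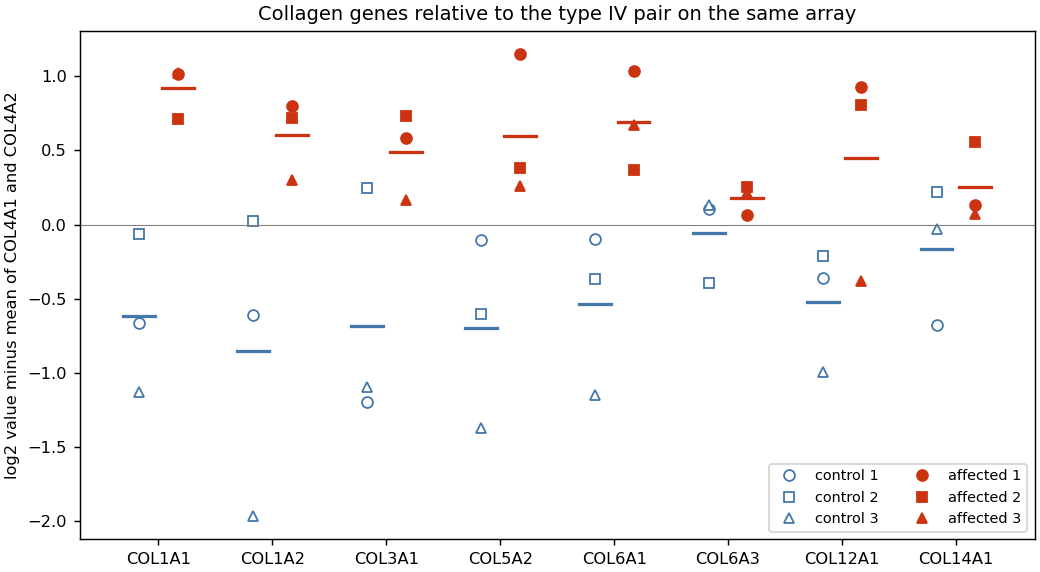
Value of 8 collagen genes minus the mean of COL4A1 and COL4A2 on the same array, log2. Open blue symbols are control dogs, filled red symbols affected dogs and bars group means. For COL1A1, COL1A2, COL5A2 and COL6A1 the groups do not overlap, while those of COL3A1, COL12A1, COL14A1 and COL6A3 overlap. In COL6A3 control 2 is at -0.39 and the other dogs lie between 0.06 and 0.25.

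Some collagen genes lie side by side in the RefSeq annotation of the dog (assembly UU_Cfam_GSD_1.0, used for gene order only). COL4A1 and COL4A2 are neighbours on chromosome 22 and had the same sign on all arrays. COL3A1 and COL5A2 are neighbours on chromosome 36, and COL3A1 minus COL5A2 was -1.09, 0.85 and 0.28 on the controls and -0.57, 0.35 and -0.10 on the affected dogs, so the pair differed most on control 1. COL4A4 and COL4A3 on chromosome 25, COL4A6 and COL4A5 on chromosome X and COL19A1 and COL9A1 on chromosome 12 are neighbours too. All probe sets of COL4A4, COL4A3, COL19A1 and COL9A1 followed the tags, and 1 of 2 did in each of COL4A6 and COL4A5.

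Genes that make, modify, bind or remove collagen were read from the same fit. Of 74 symbols in 7 lists, 63 genes had a probe set, 0 passed the adjusted threshold, and 6 were higher and 2 lower at an unadjusted p under 0.05 in limma, against 4.88% and 5.64% of all genes. The small leucine-rich proteoglycans that bind fibrils had the highest median of the lists. All 8 lay above 0 with a median of 1.13, and 4 were higher at an unadjusted p under 0.05. Biglycan (BGN) had values of -0.31, -0.35 and -1.92 on the controls and 0.81, 0.39 and 1.17 on the affected dogs, all affected above all controls. It differed by 1.65 (SE 0.50, limma adjusted p = 0.322). Asporin (ASPN) differed by 1.61 and decorin (DCN), which spaces collagen fibrils, by 1.03, both without overlap. Without control 3 ASPN differed by 1.07 and DCN by 0.73.

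Enzymes of hydroxylation and glycosylation, which modify the chains before the helix forms, had a median of 0.39 over 12 genes, 10 of them above 0. CRTAP, part of the prolyl 3-hydroxylation complex, differed by 0.59 (SE 0.23, limma adjusted p = 0.322) without overlap. The lysyl hydroxylase PLOD3 differed by 0.43 and the prolyl 4-hydroxylase subunit P4HA1 by 0.36, each with overlap. CRTAP differed by 0.37 without control 3, and P4HA1 by 0.19 without affected 3 and 0.57 without affected 2. Chaperones and secretion factors had a median of 0.09 over 9 genes, with the collagen chaperone SERPINH1 at 0.44, TMEM38B at -0.47 and FKBP14 at -0.20. TMEM38B differed by -0.20 without affected 3 and FKBP14 by -0.07 without control 2.

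Factors of propeptide processing had a median of -0.12 over 10 genes, 5 of them with all probe sets following the tags. Those with the smallest p included PCOLCE2 at 0.81, TLL1 at -0.14 and TLL2 at -0.13, which were 0.45, -0.09 and -0.08 without control 3. The highest was PCOLCE, an enhancer of propeptide cleavage, at 1.24 (2.35-fold, with overlap), and at 0.67 without affected 1. It was the list's 1 gene at least 2-fold higher. The cross-linking enzymes had a median of 0.55 over 4 genes, with LOXL4 at 0.87, LOXL2 at 0.49 and LOX, whose 1 probe set followed the tags, at -0.08. The median lies between LOXL2 and LOXL3, the latter at 0.62. LOXL3 stood at 1.98 on affected 1 and between -0.03 and 0.06 on the other arrays. Its difference turned to -0.05 without affected 1. LOXL4 stood at 1.27, -0.21 and 1.17 on the affected dogs and at most at 0.01 on the controls. LOXL4 differed by 0.61 without affected 1, 0.66 without affected 3 and 1.35 without affected 2. LOXL2 differed by 0.31 without affected 3 and 0.75 without affected 2.

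Collagen receptors had a median of -0.08 over 9 genes, beside -0.07 over all genes. Of their probe sets 43.8% followed the tags, as did 36.4% of those of collagen removal, against 41.8% of all probe sets. ITGB1, the beta 1 integrin chain shared by the collagen-binding integrins, was lower by -0.30 (SE 0.07, limma adjusted p = 0.322). Its values were 0.21, 0.20 and 0.21 on the controls and 0.01, -0.22 and -0.07 on the affected dogs, so the controls were closely alike. ITGA2 differed by -0.28, or -0.16 without control 3, and DDR1 by 0.18. The list of collagen removal, which also holds the protease inhibitors TIMP1, TIMP2 and TIMP3, had a median of -0.08 over 11 genes. In that list the fibroblast protease FAP differed by 2.08 (SE 0.79, limma adjusted p = 0.322) without overlap, and by 1.36 without control 3. The lysosomal collagenase CTSK differed by 1.39 with overlap. The interstitial collagenase MMP1 differed by -0.27.

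**Figure D5:**
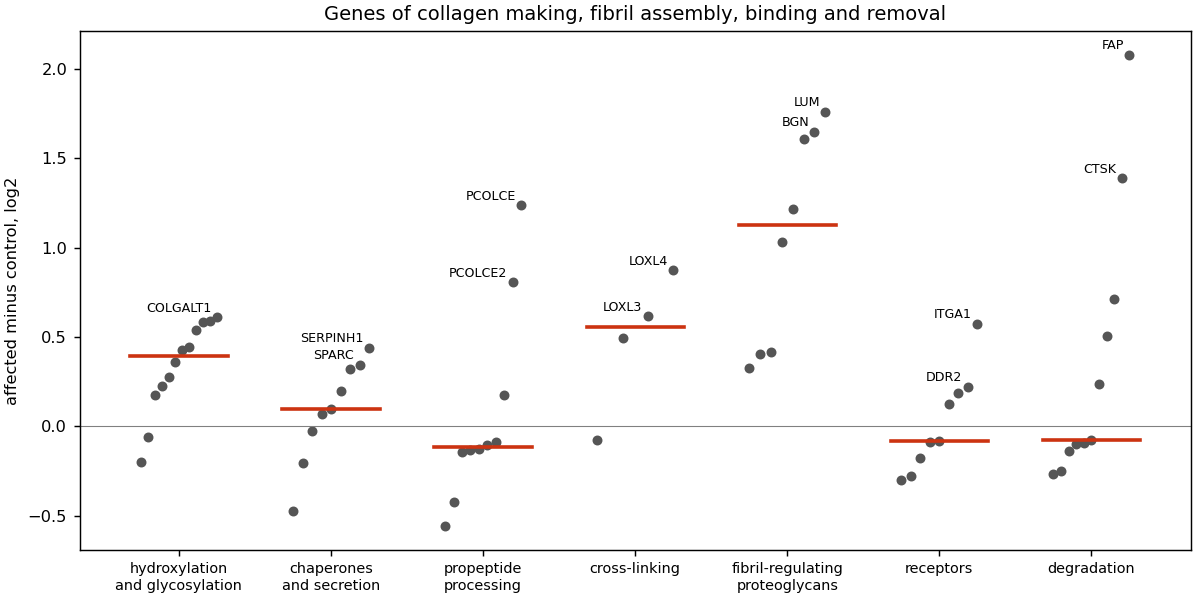
Difference of each measured gene, affected minus control on the log2 scale, in 7 lists of collagen biology, with the list median as a red bar and the highest genes named. The proteoglycans lie between 0.32 and 1.76, all above 0, while the receptors and the degradation genes have medians of -0.08, near the -0.07 of all genes. The degradation list includes the protease inhibitors TIMP1, TIMP2 and TIMP3.

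Fibroblast markers varied over the arrays beside the fibrillar genes. Of 11 fibroblast markers that are not collagens, 8 lay above 0, with a median difference of 0.79. Their median value was -0.03, -0.12 and -1.22 on the controls and 0.63, 0.01 and 0.51 on the affected dogs; like COL1A1 they were lowest on control 3 and, among affected dogs, on affected 2. Markers of activated fibroblasts had a median of 1.18 over 6 genes and values of -0.20, -0.19 and -0.23 on the controls and 1.18, 0.21 and 0.65 on the affected dogs. That list was split, with CILP at 3.47, POSTN at 2.93 and FAP at 2.08, but ACTA2 at 0.28, COMP at 0.27 and TNC at -0.05. Of the fibroblast markers, PDGFRA (-0.69), TCF21 (-0.18) and MFAP5 (-0.06) lay below 0. Without control 1 PDGFRA turned to 0.003 and MFAP5 to 0.16, and without affected 1 TCF21 turned to 0.53. In RNA of whole tissue, more cells of a type and more RNA per cell cannot be told apart, and the part of fibroblast number in the collagen values was not tested.

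Macrophage markers had a median difference of 0.75 over 9 genes, with values of 1.48, -0.42 and -0.71 on the controls and 2.30, -0.11 and -0.00 on the affected dogs, high on control 1 and affected 1. Smooth muscle and pericyte markers differed by a median of -0.07 over 11 genes, and endothelial markers by -0.28 over 9. Adipocyte markers differed by 0.27 over 6 genes and cardiomyocyte markers by 0.14 over 11. Valve and cartilage markers differed by 0.06 over 8 genes, of which 4 had all probe sets following the unexpressed tags. The list also held EPYC, a cartilage proteoglycan, which was at -1.77, -1.48 and -1.71 on the controls and 1.48, 2.44 and 1.94 on the affected dogs. It differed by 3.61 (12.2-fold, SE 0.25, limma adjusted p = 0.158), and no gene had a smaller adjusted p. Each of these lists had 0 genes past the adjusted threshold in limma, and at an unadjusted p under 0.05 all marker lists together had 10 of 70 genes higher and 2 lower, where 4.88% and 5.64% of all genes were. DCN, LUM and FAP, among the higher markers, were also among the higher genes in the lists of collagen biology. The counts of markers and of those lists thus share genes.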

How the data were processed

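RNA of left ventricle from 6 dogs, 3 control and 3 affected, was measured on Affymetrix canine arrays, which the labels call biological replicates. The deposited values are on a log2 scale, read as such from their range. GCRMA and MAS5 are named per the submitters' processing notes, with no version, role or order, and the median of each probe set over the 6 arrays is 0 in the file. Depth has no meaning for arrays, and the number of dogs limits the precision.

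Of 43035 probe sets, 111 controls were left out and 42924 used, without a filter. In the platform annotation 29254 named 1 gene, 439 several and 13231 none. A gene's value was the mean of its probe sets. Affected and control dogs were compared for 15115 genes with limma 3.58.1 in R 4.3.3 (lmFit, eBayes, two-sided, Benjamini-Hochberg over all genes, 4 residual degrees of freedom), and probe sets likewise. The script was tested on simulated data. Class medians, relative values and lists carry no test.

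The collagens, their classes and the pathway and marker lists were chosen with earlier results of these data known. Values on every array were due for COL1A1, COL1A2, COL3A1, COL4A1, COL4A2, COL6A1, COL6A2 (not analysed here) and COL6A3, for up to 4 genes with the smallest p in each class and among the remaining genes, and up to 3 per pathway list. Genes given beyond that rule, such as COL5A1, COL24A1, COL15A1, PCOLCE and EPYC, were chosen after their values were seen. The alternatives were a filter on range, 2 normalizations, 2 ways of joining probe sets, leaving out probe sets that follow the tags, sex, age, the replicate number, a term for affected 1 and affected 3, a robust variance prior and each array left out. A minimum range of 1 was added after seeing the data. Coordinates are left out, since the build behind the annotation is not given in the sources used here.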

Additional observations from a re-analysis of the deposited data

How the results depend on the processing

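No collagen gene passed the adjusted threshold in limma under any of the alternatives run, with a smallest adjusted p of 0.0766 where only probe sets with a range of at least 1 were kept, a choice made after seeing the data, and where 59 of 4988 genes passed. The cause of the shifts below was not tested. At an unadjusted p under 0.05, the count of higher collagen genes (3) became 8 of 26 with the lowest 40% of probe sets by range left out (6.61% of 10277 genes), 7 of 36 with age as a covariate (7.43% of 15115) and 7 of 16 with the minimum range of 1 (8.70% of 4988). It became 5 after quantile normalization (6.10% of all genes), 1 with the median of probe sets (4.31%) and 1 with a term for affected 1 and affected 3 (2.79%). It ranged from 1 to 6 with 1 dog left out, where 2.63% to 6.97% of all genes were called. The count of lower genes (1) became 8 with age (19.4% of all genes) and 2 with the replicate block (4.44%). It was 0 with the range filter, median centring, the minimum range, the probe set with the largest range, the term, or the probe sets that follow the tags left out, where 1.25% to 4.12% of the genes tested were lower. It ranged from 0 to 13 with 1 dog left out, where 1.85% to 24.0% of all genes were lower.

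The fibrillar median (0.50) was 1.51 with the minimum range, 0.72 with the probe set of largest range and 0.26 with the term, and 0.38 to 0.63 with 1 dog left out. The type VI median (0.45) was 1.11, 1.05 and -0.10 in these settings, 0.95 without the probe sets that follow the tags (a setting that removes lower collagen probe sets by construction), and 0.24 to 0.77 with 1 dog left out. The fibril-associated median (-0.07) was 0.63 with the range filter, 1.34 with the minimum range, 0.63 without the probe sets that follow the tags, 0.0028 after median centring and 0.0098 after quantile normalization. The type IV median (-0.06) was 0.15, 0.21, 0.060, 0.016 and -0.0026 in the same settings. The range filter kept 26 and the minimum range 16 of the 36 collagen genes, so their class medians are over fewer genes. Both leave out flat probe sets, among them many that follow the tags and lie below 0, which raises these medians in part by construction. Of the named collagen genes, COL4A1 turned to -0.42, COL4A2 to -0.40 and COL6A3 to -0.10 with the term. After quantile normalization COL4A2 turned to -0.056, COL4A4 to 0.0015 and COL4A5 to 0.011, and after median centring COL4A5 turned to 0.016. With 1 dog left out COL4A2 ranged from -0.042 to 0.43.

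The replicate numbers were not taken as pairs. Deviations from the group means of dogs with the same number correlated at 0.25, 0.16 and 0.064 over genes, and each dog correlated best with its own number, which is a hint from the data and not from the design. With the number as a block, 2 collagen genes were higher, COL12A1 and COL5A2, and 2 lower (5.56% each, against 5.54% and 4.44% of all genes). With 3 dogs a group, intervals on most fibrillar genes span more than their difference, and centred values do not show which probe sets were above background.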
